A study of Mus musculus with 8 samples.

Results

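Costimulatory and checkpoint molecules are surface proteins that pass activating or inhibitory signals between T cells and the cells that present antigen to them. Of their genes, 10 are described here in mouse aorta, taken from the count files by symbol: *Cd40*, *Cd80*, *Cd86*, *Cd274*, *Pdcd1lg2*, *Pdcd1*, *Ctla4*, *Havcr2*, *Lag3* and *Tigit*. They are 10 of the 21859 genes in the count files, and 8 of them passed the filter on low counts, as did 15077 genes in all. *Pdcd1lg2* and *Ctla4* had too few counts to be tested and are given by their counts. Whole aortas from 4 apolipoprotein E knockout (*ApoE-/-*) mice were compared with aortas from 4 wild-type (WT) mice, 1 library per mouse. All 8 mice were 40-week-old males on a normal chow diet, and none received an agent. The knockout is a germline disruption present in every cell, on the C57BL/6 background that the WT mice share, and it makes mice prone to atherosclerosis. No cell type was isolated, so fewer cells of a type and less RNA per cell cannot be told apart in these values.

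A T cell that meets its antigen needs a second signal, given when CD80 or CD86 on the presenting cell binds CD28 on the T cell, and CD40 on the presenting cell, bound by CD40 ligand, raises the amount of CD80 and CD86. CTLA-4 competes with CD28 for the same ligands and dampens the response. PD-L1 and PD-L2, encoded by *Cd274* and *Pdcd1lg2*, bind the inhibitory receptor PD-1, encoded by *Pdcd1*. TIM-3 (*Havcr2*), LAG-3 and TIGIT are further inhibitory receptors of T cells and natural killer cells, and TIM-3 is also found on macrophages and dendritic cells. In atherosclerosis these molecules are studied because macrophages, dendritic cells and T cells gather in the vessel wall.

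Between 23240995 and 23940156 read pairs were counted on genes in the *ApoE-/-* libraries and between 18375898 and 21664598 in the WT libraries, without overlap. The 10 genes together received 892 to 1215 counts in an *ApoE-/-* library and 455 to 966 in a WT library, of which *Cd274* alone had 260 to 780. Levels are given as TMM-normalized CPM, the count scaled to a common library size by edgeR. *Apoe* itself was at 14.7 to 36.3 CPM in *ApoE-/-* aortas and 536 to 857 CPM in WT aortas, so every library matched its genotype label. The library of *ApoE-/-* mouse 1 stood apart from its group. Its correlations with the other *ApoE-/-* libraries across genes were 0.849 to 0.903, against at least 0.951 among those other libraries and at least 0.979 among the WT libraries. Results that change without this mouse are given both ways.

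The 250 bases before the RefSeq start site are shown for *Havcr2*, the gene of the 10 with the largest change, and for *Cd80*, the next largest by the fitted value. They are written 5′ to 3′ on the plus strand of GRCm38, at chr11:46454681-46454930 for *Havcr2* and chr16:38458683-38458932 for *Cd80*. Capitals mark matches to an AP-1 motif (TGANTCA) and a PU.1 motif (GAGGAAGT). The middle base of the AP-1 motif was left free in the search, and both AP-1 matches read TGATTCA.
Havcr2: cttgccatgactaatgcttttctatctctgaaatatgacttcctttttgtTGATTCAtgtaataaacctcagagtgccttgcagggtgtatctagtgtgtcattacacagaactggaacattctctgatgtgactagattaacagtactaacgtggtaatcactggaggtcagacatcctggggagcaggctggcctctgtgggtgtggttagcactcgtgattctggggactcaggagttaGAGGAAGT
Cd80: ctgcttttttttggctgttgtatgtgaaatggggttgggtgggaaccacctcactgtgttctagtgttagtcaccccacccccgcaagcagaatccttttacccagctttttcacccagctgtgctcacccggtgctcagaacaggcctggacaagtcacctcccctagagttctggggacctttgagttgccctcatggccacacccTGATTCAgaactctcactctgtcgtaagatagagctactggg

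The *Havcr2* stretch overlapped no gene of GENCODE M21. The *Cd80* stretch lay in an intron of the longer annotated *Cd80* transcript, since the RefSeq start is 3372 bp from the 5′ end of the GENCODE gene. RefSeq windows of 300 bases, from 250 before to 50 after the start, were found for 7 of the 10 genes, all but *Cd40*, *Cd86* and *Lag3*, and were searched on both strands. AP-1 was matched in *Havcr2* (bases -200 to -194) and *Cd80* (bases -42 to -36), and in 7.81% of all 32851 windows. PU.1 was matched in *Havcr2*, in the 8 bases just before the start, and in 3.2% of all windows. NF-kB was matched in *Pdcd1lg2* and in 8.46% of all windows. The letters of an interferon gamma-activated site (TTCNNNGAA, 8.3% of all windows), an interferon-stimulated response element (ISRE, 3.44%), an ETS core (CCGGAAGT, 3.89%) and an E-box (CACGTG, 7.15%) were in none of the 7 windows. These matches describe the letters and not binding. The PU.1 letters contain the core that ETS factors share.

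Genes were first compared with each other by CPM per kilobase of exon, a level that corrects for gene length. *Cd274*, which encodes PD-L1, stood highest in both genotypes, at 6.12 ± 1.90 (SD, n = 4) CPM per kilobase in *ApoE-/-* aortas and 6.63 ± 2.34 (SD, n = 4) in WT aortas. In WT aortas the order after *Cd274* was *Lag3*, *Tigit*, *Cd86*, *Cd80*, *Cd40*, *Pdcd1*, *Havcr2*, *Ctla4* and *Pdcd1lg2*. Neighbours in that WT order had ranges apart only for *Cd274* and *Lag3*, *Cd86* and *Cd80*, and *Cd40* and *Pdcd1*. In *ApoE-/-* aortas the order was *Cd274*, *Tigit*, *Cd86*, *Havcr2*, *Cd80*, *Lag3*, *Cd40*, *Pdcd1*, *Ctla4* and *Pdcd1lg2*, with ranges apart only for *Cd40* and *Pdcd1*, and *Pdcd1* and *Ctla4*. *Havcr2* was thus at place 8 in WT aortas, at 0.169 ± 0.0478 (SD, n = 4) CPM per kilobase, and at place 4 in *ApoE-/-* aortas, at 1.43 ± 0.773 (SD, n = 4). The lowest levels per kilobase were those of *Pdcd1lg2*, at 0.132 ± 0.0639 (SD, n = 4) in *ApoE-/-* aortas and 0.0690 ± 0.0248 (SD, n = 4) in WT aortas. With the longest transcript as the length, *Cd274* stayed first and *Havcr2* was at place 9 in WT and 5 in *ApoE-/-* aortas.

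**Figure D1:**
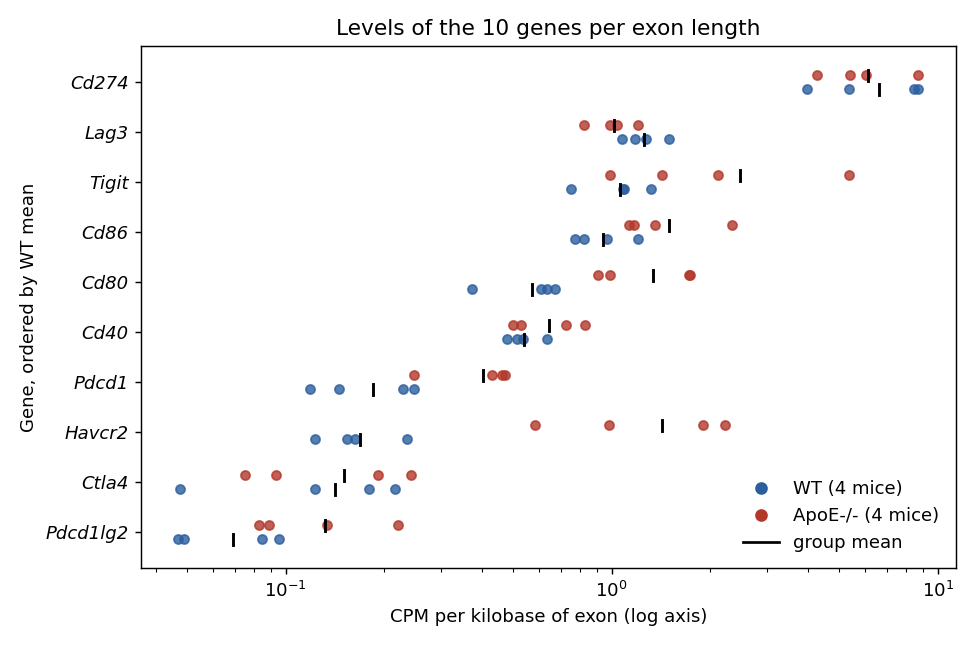
Level of each of the 10 genes in CPM per kilobase of exon (horizontal log axis), with 1 point per mouse for 4 *ApoE-/-* and 4 WT mice and the group mean as a line. *Cd274* is highest in both genotypes, and the *Havcr2* means are 1.43 and 0.169.

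Of the 8 tested genes, 1 passed an adjusted p of 0.05 in edgeR's quasi-likelihood test, adjusted over all 15077 genes. That gene was *Havcr2*, and it was higher in *ApoE-/-* aortas. Over all genes 0.464% passed in either direction and 0.371% passed as higher. DESeq2 called *Havcr2* and *Cd80*, against 4.97% of the 14573 genes to which it gave an adjusted p. The values of the 4 *ApoE-/-* mice lay above those of all 4 WT mice for *Cd80*, *Pdcd1* and *Havcr2*, as they did for 5.41% of all genes tested, and no gene of the 10 lay below throughout, against 3.3%. In either direction 8.71% of all genes tested did not overlap. By the fitted values 6 of the 8 were higher and 2 lower, with a median log2 fold change of 0.89 against 0.05 over all genes tested. An unadjusted p under 0.05 was given to 5 of the 8 and to 11.4% of all genes tested.

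**Figure D2:**
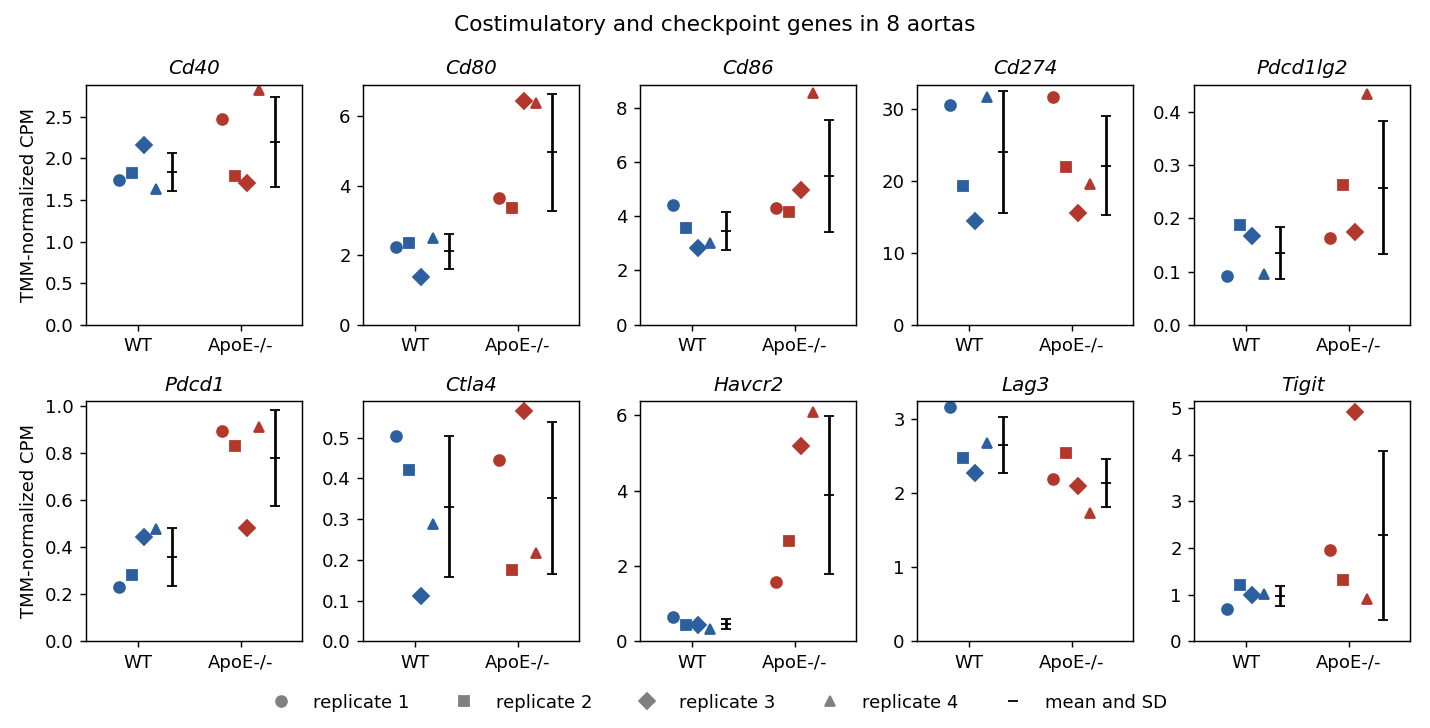
TMM-normalized CPM (vertical axes, each from 0) of the 10 genes in 4 WT and 4 *ApoE-/-* aortas, with points for the mice, numbered by shape, and bars for the mean and SD. *Havcr2* is at 1.58 to 6.08 CPM with the *ApoE-/-* genotype and 0.335 to 0.643 CPM in WT mice, while the ranges of *Cd40*, *Cd86*, *Cd274*, *Lag3* and *Tigit* overlap.

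Among the costimulatory molecules, CD40 is the receptor through which helper T cells activate presenting cells and also endothelium. *Cd40* (ENSMUSG00000017652.16, chr2:165055627-165072948, plus strand) was at 2.48, 1.79, 1.70 and 2.82 CPM in *ApoE-/-* mice 1 to 4 and at 1.74, 1.83, 2.16 and 1.63 CPM in WT mice 1 to 4. The groups overlapped, since *ApoE-/-* mice 2 and 3 lay among the WT mice. The log2 fold change was 0.26 (SE 0.23, adjusted p = 0.789 in edgeR), within the spread between mice. Its ligand gene *Cd40lg* had 0, 0, 2 and 1 counts in the *ApoE-/-* libraries and 1, 2, 1 and 1 in the WT libraries, so no difference in the ligand could be detected at this depth.

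CD80 and CD86 are the paired ligands of CD28 and CTLA-4, and their genes lie on chromosome 16. *Cd80* (ENSMUSG00000075122.5, chr16:38455561-38496335, plus strand) was at 3.65, 3.37, 6.45 and 6.38 CPM in the 4 *ApoE-/-* mice and at 2.25, 2.34, 1.39 and 2.49 CPM in the 4 WT mice. Every *ApoE-/-* mouse was above every WT mouse, with mice 3 and 4 the highest. The means of *Cd80* were 4.96 ± 1.68 (SD, n = 4) and 2.12 ± 0.497 (SD, n = 4) CPM, a fold of 2.34. The edgeR log2 fold change of *Cd80* was 1.23 (SE 0.31, adjusted p = 0.124) and did not pass, whereas DESeq2 gave an adjusted p of 0.0124. With each mouse left out in turn, DESeq2 called *Cd80* in 4 of 8 fits, with adjusted p up to 0.0929, and edgeR in 0 of 8. Without *ApoE-/-* mouse 1 the edgeR log2 fold change was 1.35 (adjusted p = 0.0528).

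*Cd86* (ENSMUSG00000022901.13, chr16:36603869-36666081, minus strand) was at 4.30, 4.15, 4.97 and 8.55 CPM in the *ApoE-/-* mice and at 4.41, 3.56, 2.83 and 3.02 CPM in the WT mice. WT mouse 1 lay above *ApoE-/-* mice 1 and 2, and *ApoE-/-* mouse 4 stood above all others. For *Cd86* the fitted log2 fold change was 0.67 (SE 0.28, adjusted p = 0.415 in edgeR), and it was 0.37 without *ApoE-/-* mouse 4. That mouse also had the highest summed level of 10 macrophage markers, 2006 CPM against 463, 798 and 1005 in *ApoE-/-* mice 1, 2 and 3, and the part of those cells in the *Cd86* value was not tested.

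PD-1 and its ligands make up the next axis. *Cd274* (ENSMUSG00000016496.7, chr19:29367455-29388095, plus strand), whose product PD-L1 is made by endothelium as well as leukocytes, was at 31.7, 21.9, 15.5 and 19.5 CPM in the *ApoE-/-* mice and at 30.6, 19.4, 14.4 and 31.6 CPM in the WT mice. The groups covered the same range, with a log2 fold change of -0.12 (SE 0.31, adjusted p = 0.938 in edgeR). This is the gene of the 10 with the most counts, 260 to 780 per library, so its spread was not set by low counts. The endothelial markers *Kdr* and *Cdh5* were lower in *ApoE-/-* aortas by DESeq2, and their part in the *Cd274* value was not tested. *Pdcd1lg2* (ENSMUSG00000016498.10), 22.8 kb further along the same strand, had 4, 6, 4 and 10 counts in the *ApoE-/-* libraries and 2, 4, 3 and 2 in the WT libraries. With 3 of the 4 WT libraries at 3 counts or fewer, no difference could be read from them. On the opposite strand each ligand gene overlaps an annotated gene, *AC119228.1* for *Cd274* and *A930007I19Rik* for *Pdcd1lg2*. The deposited counts are labelled as stranded, and the orientation setting was not given in the sources used here.

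*Pdcd1* (ENSMUSG00000026285.7, chr1:94038305-94052553, minus strand), which encodes the receptor PD-1 of activated T cells, was at 0.893, 0.831, 0.479 and 0.911 CPM in the *ApoE-/-* mice and at 0.229, 0.281, 0.443 and 0.479 CPM in the WT mice. *ApoE-/-* mouse 3 and WT mouse 4 were almost level, at 0.4792 against 0.4787 CPM, a gap smaller than 1 count. For *Pdcd1* the fitted log2 fold change was 1.12 (SE 0.34, adjusted p = 0.215 in edgeR), on 11 to 22 counts per *ApoE-/-* library and 5 to 10 per WT library. The summed level of the T cell markers was 11.1 to 17.9 CPM in *ApoE-/-* and 7.98 to 12.3 CPM in WT aortas, and its part in the *Pdcd1* value was not tested.

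*Havcr2* (ENSMUSG00000020399.14, chr11:46454935-46481255, plus strand) was the inhibitory receptor that passed the edgeR threshold as higher. It was at 1.58, 2.67, 5.18 and 6.08 CPM in *ApoE-/-* mice 1 to 4, on 39, 61, 119 and 140 counts, and at 0.643, 0.421, 0.443 and 0.335 CPM in the WT mice, on 14, 9, 8 and 7 counts. The lowest *ApoE-/-* value, in mouse 1, was above the highest WT value. The means were 3.88 ± 2.10 (SD, n = 4) and 0.461 ± 0.130 (SD, n = 4) CPM, and the edgeR log2 fold change was 3.06 (SE 0.48, adjusted p = 0.0462), a fold of 8.31. DESeq2 gave *Havcr2* an adjusted p of 2.54e-06. Without *ApoE-/-* mouse 1 the log2 fold change was 3.31 (edgeR adjusted p = 0.00636), and without any other mouse the call was lost, with log2 fold changes that stayed between 2.75 and 3.31 over the 8 fits and edgeR adjusted p from 0.0584 to 0.180. Within the *ApoE-/-* group *Havcr2* had the same order of mice as the macrophage marker sum and as *Itgax*, the CD11c integrin of dendritic cells and macrophages, which was at 7.31, 26.2, 45.4 and 55.0 CPM. The part of those cells in the *Havcr2* value was not tested.

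CTLA-4 is carried mainly by activated and regulatory T cells. *Ctla4* (ENSMUSG00000026011.13, chr1:60887000-60915832, plus strand) had 11, 4, 13 and 5 counts in the *ApoE-/-* libraries and 11, 9, 2 and 6 in the WT libraries, and the groups overlapped. Without the filter on low counts edgeR gave it a log2 fold change of 0.06 (SE 0.54, adjusted p = 0.980), an error too wide to tell a rise from a fall. The summed level of 3 regulatory T cell markers also overlapped, at 23.5 to 30.5 CPM in *ApoE-/-* and 27.1 to 32.2 CPM in WT aortas.

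LAG-3 is a relative of CD4 that binds class II histocompatibility molecules. *Lag3* (ENSMUSG00000030124.2, chr6:124904361-124911705, minus strand) was at 2.19, 2.54, 2.09 and 1.74 CPM in the *ApoE-/-* mice and at 3.17, 2.48, 2.27 and 2.68 CPM in the WT mice. *ApoE-/-* mouse 2 lay among the WT mice and the other *ApoE-/-* mice lay below them. The log2 fold change was -0.31 (SE 0.20, adjusted p = 0.677 in edgeR).

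TIGIT binds PVR and nectin-2 and competes for them with the activating receptor CD226. *Tigit* (ENSMUSG00000071552.5, chr16:43648867-43664146, minus strand) was at 1.95, 1.31, 4.92 and 0.911 CPM in the *ApoE-/-* mice and at 0.688, 1.22, 0.997 and 1.01 CPM in the WT mice. *ApoE-/-* mouse 3 stood far above the rest, and *ApoE-/-* mouse 4 lay among the WT mice. Fitted over all mice, the log2 fold change of *Tigit* was 1.21 (SE 0.53, adjusted p = 0.435 in edgeR), and it was 0.51 without *ApoE-/-* mouse 3. Of 4 B cell markers, *Pax5* was highest in that mouse, and *Ms4a1*, *Cd79a* and *Cd79b* were highest in *ApoE-/-* mouse 1. The part of B cells in the *Tigit* value was not tested.

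**Figure D3:**
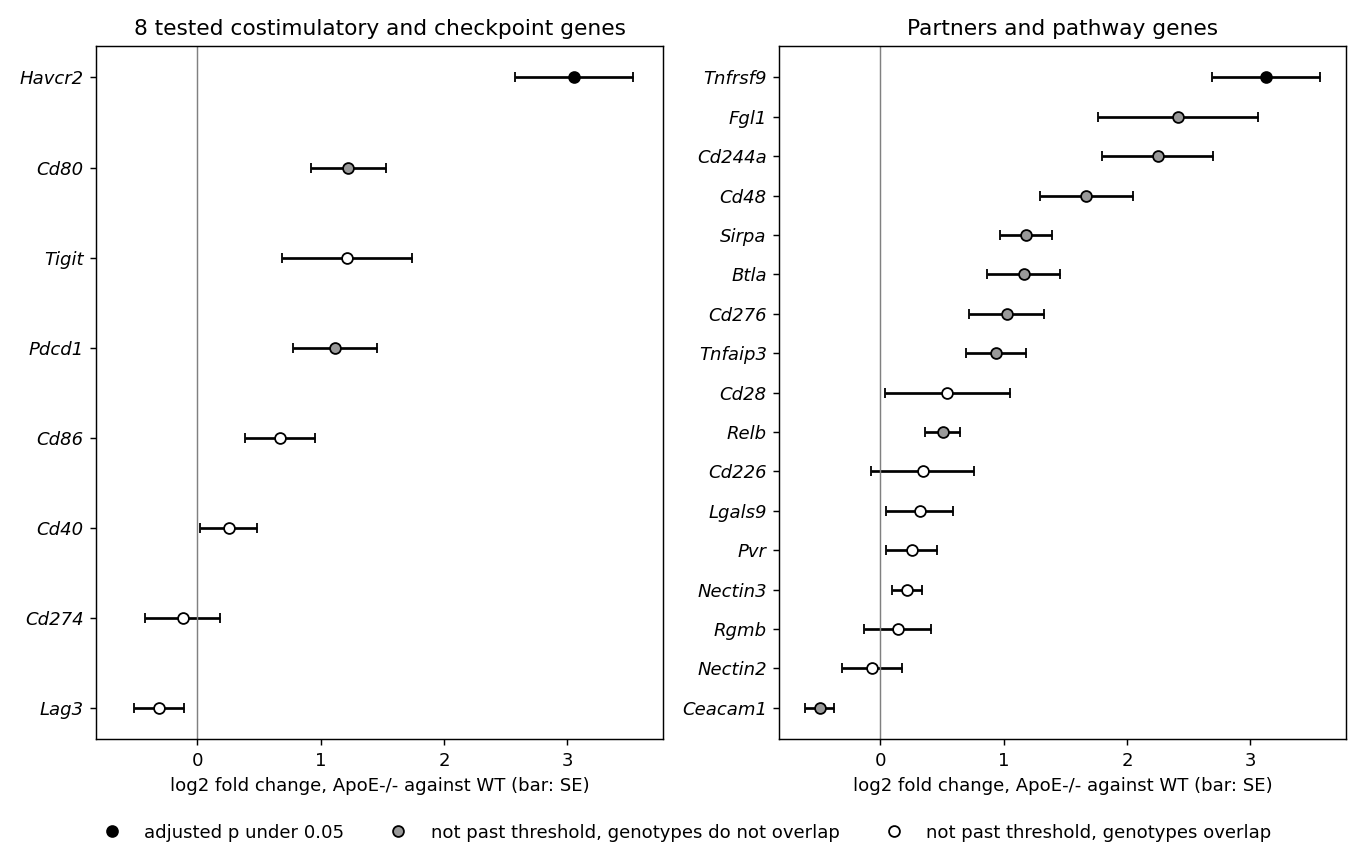
Log2 fold change of *ApoE-/-* against WT from edgeR (horizontal axes, points with SE bars) for the 8 tested costimulatory and checkpoint genes and for related genes. The related genes shown are all tested binding partners, and those of the other lists that passed the threshold or did not overlap. *Havcr2*, at 3.06, and *Tnfrsf9*, at 3.13, are the points that pass the adjusted threshold.

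Of the leukocyte markers, *Ptprc*, *Fcgr1* and *Itgax* passed in edgeR. *Ptprc*, which encodes the leukocyte surface protein CD45, was at 58.7, 58.9, 72.3 and 103 CPM in the *ApoE-/-* mice and at 28.3, 26.6, 21.3 and 27.3 CPM in the WT mice. For *Ptprc* the fitted log2 fold change was 1.5 (SE 0.20, adjusted p = 0.0380 in edgeR), and when 1 mouse was left out it passed in edgeR only without *ApoE-/-* mouse 1 and in DESeq2 in 8 of 8 fits. All 10 macrophage markers were higher without overlap, against 5.41% of all genes tested, with a summed level of 463 to 2006 CPM against 264 to 385 CPM. Of them 1, *Fcgr1*, passed in edgeR and 7 passed in DESeq2, against 0.371% and 3.23% of all genes as higher. Of the T cell markers 10 of 13 were used here, and all 9 that were tested were higher by the fitted value, with none past the threshold in edgeR or DESeq2 and 2 at an unadjusted p under 0.05, against 11.4% of all genes. *Cd3e*, a subunit of the T cell receptor complex, was at 0.525 to 0.974 CPM in *ApoE-/-* and 0.111 to 0.749 CPM in WT aortas. Of the 4 B cell markers, *Pax5*, a transcription factor, was higher without overlap at 1.22 to 4.97 CPM against 0.734 to 1.16 CPM, while *Ms4a1*, *Cd79a* and *Cd79b* overlapped. The natural killer cell markers summed to 1.75 to 4.18 CPM in *ApoE-/-* and 0.843 to 1.42 CPM in WT aortas, and the defining marker *Ncr1* was at 0 in WT mouse 2, as was *Klrb1c* in WT mice 2 and 3.

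The dendritic cell markers summed to 72.9 to 127 CPM in *ApoE-/-* and 81.9 to 96.0 CPM in WT aortas, with *Itgax* higher and past the edgeR threshold. *Zbtb46* alone was at 44.1 to 57.6 CPM in *ApoE-/-* and 62.6 to 76.0 CPM in WT aortas. *Itgax* was at 7.31 to 55.0 against 1.16 to 1.83 CPM, so the sum mostly followed these genes and not the whole list. Of 9 dendritic cell markers 8 were tested, with 6 higher and 2 lower by the fitted value and 6 at an unadjusted p under 0.05, against 11.4% of all genes. Besides *Itgax* the last were *Flt3*, *Ccr7* and *Cd209a*, with log2 fold changes of 1.14, 1.19 and 1.31 and overlap, and *Zbtb46* and *Clec9a*. *Zbtb46* and *Clec9a* were at lower values in every *ApoE-/-* mouse than in any WT mouse, against 3.3% of all genes tested, with log2 fold changes of -0.42 (SE 0.12) and -0.37 (SE 0.11). Neither passed in edgeR, and DESeq2 called *Clec9a* (adjusted p = 0.0364). Of the markers of the vessel wall, smooth muscle summed to 4678 to 19232 against 10389 to 19580 CPM, endothelium to 1509 to 2378 against 2148 to 2675 CPM, and adventitial fibroblasts to 1522 to 4144 against 1702 to 2132 CPM, so the tissue label was borne out in all 8 libraries. The lowest smooth muscle, endothelium and adventitial fibroblast sums were all those of *ApoE-/-* mouse 1, whose library stood apart from its group. All 6 endothelial markers were lower by the fitted value and none passed in edgeR, while 3 had an unadjusted p under 0.05, against 11.4% of all genes. *Kdr* and *Cdh5* were lower without overlap, against 3.3% of all genes tested, with log2 fold changes of -0.79 (SE 0.19) and -0.37 (SE 0.11), and passed in DESeq2 (adjusted p = 0.0025 and 0.0030), against 4.97% of all genes. Adipocyte markers overlapped as well, at 1957 to 7128 against 4564 to 9250 CPM. All 6 cardiac muscle markers were lower in *ApoE-/-* aortas without overlap, against 3.3% of all genes tested, at 19.9 to 116 against 201 to 452 CPM, with *Myl7* at 0 in *ApoE-/-* mice 2 and 3. The part of these cell types in the values of the 10 genes was not tested.

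Set against the leukocyte gene *Ptprc* in the same library, the 10 genes fell into different positions. *Havcr2* was at 5.08 ± 1.92 (SD, n = 4) counts per 100 *Ptprc* counts in *ApoE-/-* aortas and 1.79 ± 0.474 (SD, n = 4) in WT aortas, higher without overlap, with a ratio of the means of 2.84. *Cd80*, *Pdcd1* and *Tigit*, which were higher in CPM by the fitted value, had ratios of 0.837, 0.786 and 0.862 on this scale, and their groups overlapped. *Lag3*, *Cd274*, *Cd40* and *Cd86* were lower per *Ptprc* count without overlap. *Lag3* was at 3.16 ± 1.14 (SD, n = 4) against 10.2 ± 0.838 (SD, n = 4) counts per 100 *Ptprc* counts, and *Cd274* at 32.9 ± 16.2 (SD, n = 4) against 91.1 ± 24.4 (SD, n = 4). *Cd86* had a ratio of 0.555 and *Cd40* of 0.424. *Pdcd1lg2* and *Ctla4*, on few counts, had ratios of 0.642 and 0.416 and overlapped. These ratios are descriptions without a test, and since *Ptprc* itself was higher, a gene expressed outside leukocytes is lower on this scale without any change of its own. The share of all genes tested that did not overlap on this scale was not computed, so no background stands beside these positions.

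**Figure D4:**
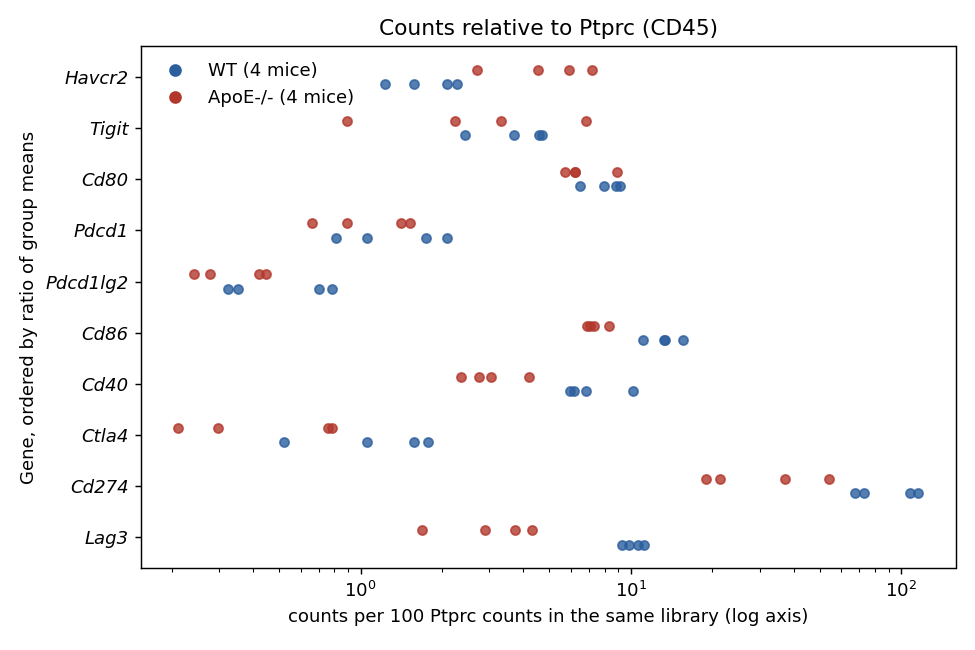
Counts of each of the 10 genes per 100 *Ptprc* counts of the same library (log axis), with 1 point per mouse for 4 *ApoE-/-* and 4 WT mice. The *ApoE-/-* points of *Havcr2* lie above all WT points, and those of *Lag3*, *Cd274*, *Cd40* and *Cd86* lie below them.

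The related genes, in 3 lists, numbered 46, of which 41 were tested, with a median log2 fold change of 0.26 against 0.05 over all genes tested. Of these, 1 passed in edgeR as higher (background 0.371%) and 0 as lower (background 0.0929%), while 12 had an unadjusted p under 0.05 (background 11.4%). DESeq2 called 9 as higher (background 3.23%) and 1 as lower, or 10 in either direction (background 4.97%). The gene that passed was *Tnfrsf9*, which encodes the costimulatory receptor 4-1BB of activated T cells. It was at 2.44, 1.49, 5.10 and 2.99 CPM in the *ApoE-/-* mice and at 0.367, 0.468, 0.277 and 0.239 CPM in the WT mice, with no overlap. The log2 fold change of *Tnfrsf9* was 3.13 (SE 0.44, adjusted p = 0.0381 in edgeR). It also passed without *ApoE-/-* mouse 1 or 2, and without any other mouse the edgeR adjusted p was 0.0751 to 0.169, while DESeq2 called it in 8 of 8 fits without 1 mouse. Without *ApoE-/-* mouse 1, where 2.75% of all genes passed as higher and 3.91% in either direction, 5 of the related genes passed: *Tnfrsf9*, *Cd244a*, *Sirpa*, *Cd48* and *Tnfaip3*.

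The first list held the binding partners of the 10 genes, with *Cd276* as a further relative of CD80. None of its 10 tested genes passed in edgeR, while 3 had an unadjusted p under 0.05 and DESeq2 called 3, against 11.4% and 4.97% of all genes. The partners of PD-1 ligands and of TIGIT did not pass. *Pvr*, 204.4 kb from *Apoe*, was at 34.5 ± 11.2 (SD, n = 4) CPM in *ApoE-/-* and 28.9 ± 0.80 (SD, n = 4) CPM in WT aortas, a log2 fold change of 0.26 (SE 0.20). *Nectin2* had a log2 fold change of -0.07 (SE 0.25), and lies 17.5 kb from the disrupted *Apoe* gene. *Nectin3* had a log2 fold change of 0.22 (SE 0.12), *Cd226* of 0.34 (SE 0.42), and *Rgmb*, a partner of PD-L2, of 0.14 (SE 0.27). *Cd28*, the shared receptor of CD80 and CD86, was at 1.19 ± 0.686 (SD, n = 4) against 0.811 ± 0.158 (SD, n = 4) CPM and overlapped. *Cd96*, a further receptor for PVR, had 9, 3, 8 and 12 counts against 1, 6, 2 and 7 and was not tested.

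Of the reported ligands of TIM-3, *Lgals9* (galectin-9) was at 39.8 ± 15.2 (SD, n = 4) CPM in *ApoE-/-* and 31.8 ± 6.26 (SD, n = 4) CPM in WT aortas, with a log2 fold change of 0.32 (SE 0.27) and overlap. *Ceacam1* was at 16.1 ± 1.40 (SD, n = 4) against 22.6 ± 2.43 (SD, n = 4) CPM, lower in every *ApoE-/-* mouse than in every WT mouse. The log2 fold change of *Ceacam1* was -0.49 (SE 0.12, adjusted p = 0.109 in edgeR and 0.0040 in DESeq2), and the gene lies 5762.5 kb from *Apoe*. *Fgl1*, a ligand of LAG-3, was at 7.43, 3.76, 3.14 and 19.1 CPM in the *ApoE-/-* mice and at 1.56, 1.17, 0.886 and 2.63 CPM in the WT mice. The groups of *Fgl1* did not overlap, and the log2 fold change was 2.41 (SE 0.65, adjusted p = 0.153 in edgeR and 0.0049 in DESeq2). *Cd276* was also higher without overlap, at 13.4 ± 5.50 (SD, n = 4) against 6.58 ± 1.57 (SD, n = 4) CPM, with a log2 fold change of 1.03 (SE 0.30, adjusted p = 0.195 in edgeR and 0.0463 in DESeq2).

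Of 22 further costimulatory and inhibitory genes, 19 were tested, 15 were higher by the fitted value and 5 were higher without overlap, against 5.41% of all genes tested. DESeq2 called the same number, 5, as higher, against 3.23%. Besides *Tnfrsf9* these were *Btla*, *Cd244a*, *Cd48* and *Sirpa*. *Btla*, an inhibitory receptor of B and T cells, was at 5.09 ± 1.81 (SD, n = 4) against 2.27 ± 0.391 (SD, n = 4) CPM, a log2 fold change of 1.16 (SE 0.29, adjusted p = 0.129 in edgeR and 0.0154 in DESeq2). *Cd244a* was at 4.37 ± 2.48 (SD, n = 4) against 0.912 ± 0.233 (SD, n = 4) CPM, and its ligand *Cd48* at 8.79 ± 5.21 (SD, n = 4) against 2.76 ± 0.285 (SD, n = 4) CPM. Their log2 fold changes were 2.25 (SE 0.45, adjusted p = 0.0709 in edgeR and 0.000398 in DESeq2) and 1.67 (SE 0.38, adjusted p = 0.0992 in edgeR and 0.00205 in DESeq2). *Sirpa*, the myeloid receptor for CD47, was at 133 ± 38.7 (SD, n = 4) against 58.8 ± 7.57 (SD, n = 4) CPM, with a log2 fold change of 1.18 (SE 0.21, adjusted p = 0.0560 in edgeR and 4.7e-05 in DESeq2). In *Cd244a* and *Sirpa* the order of the *ApoE-/-* mice was that of the macrophage marker sum, and its part was not tested.

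Of 12 genes that carry the signal of CD40, all were tested and 12 were higher by the fitted value, with a median log2 fold change of 0.13 against 0.05 over all genes tested. None passed in edgeR, while 3 had an unadjusted p under 0.05 and DESeq2 called 2, against 11.4% and 4.97% of all genes. *Relb*, a subunit of NF-kB whose gene lies 66.7 kb from *Apoe*, was higher without overlap at 22.2 ± 3.56 (SD, n = 4) against 15.6 ± 1.38 (SD, n = 4) CPM, a log2 fold change of 0.51 (SE 0.14, adjusted p = 0.163 in edgeR and 0.0477 in DESeq2). *Tnfaip3*, which restrains NF-kB signalling, was higher without overlap at 28.0 ± 9.86 (SD, n = 4) against 14.6 ± 1.79 (SD, n = 4) CPM, a log2 fold change of 0.94 (SE 0.24, adjusted p = 0.138 in edgeR and 0.0196 in DESeq2).

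**Figure D5:**
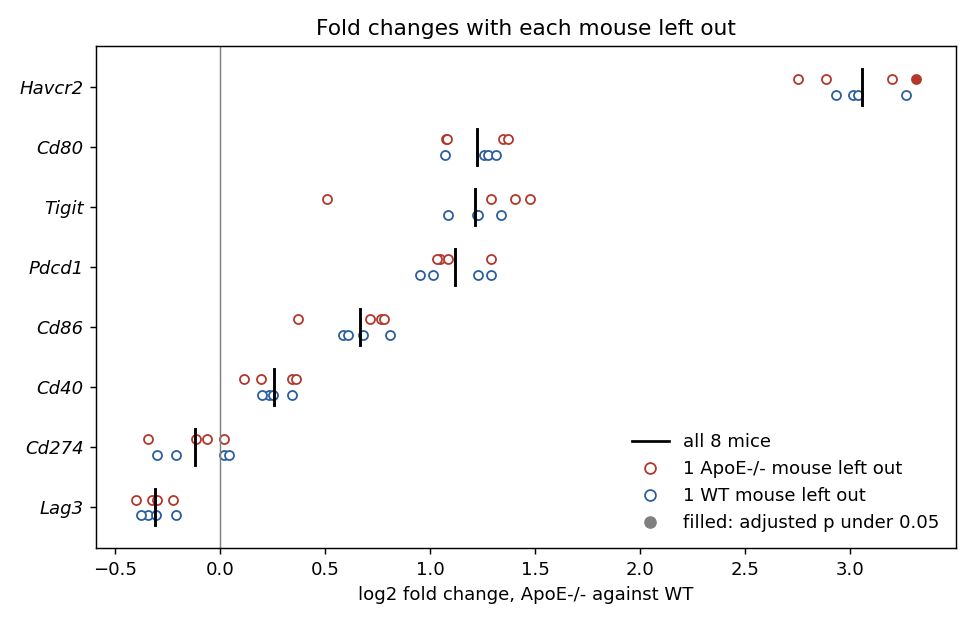
Log2 fold change of the 8 tested genes (horizontal axis) with all 8 mice (line) and with each mouse left out in turn (points, filled where the edgeR adjusted p is under 0.05). *Havcr2* stays between 2.75 and 3.31 with 1 filled point, *Tigit* drops to 0.51 and *Cd86* to 0.37, and *Cd274* lies on both sides of 0.

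The genes whose pattern over the 8 libraries was most like those of *Cd86*, *Cd274* and *Lag3* were found by the root mean square difference of log2 CPM about each gene's mean, over 15076 other genes. For *Cd86* these were *Spc25*, at 0.0610 log2 units, *Unc93b1*, at 0.0923, *Clec4a1*, at 0.106, and *Mfsd12* and *Abcg3*, at 0.133 each, against a median of 0.534 over all genes. For *Cd274* these were *Cyp2u1*, at 0.148 log2 units, *Gtf2ird1*, at 0.172, *Tymp*, at 0.188, *Cbx2*, at 0.191, and *Sfxn5*, at 0.194, against a median of 0.509. For *Lag3* these were *Klf11*, at 0.0952 log2 units, *Tmem253*, at 0.101, *Gm49396* and *Acvr2b*, at 0.107 each, and *Tmem245*, at 0.113, against a median of 0.371. The 8 libraries differ in depth and in the share of leukocyte RNA, which all these genes share, and a gene that varies little lies near many others.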

How the data were processed

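Total RNA from whole aortas was ribodepleted and made into stranded paired-end libraries, 1 per mouse. The authors deposited raw read-pair counts per gene, not normalized. The submitters' processing notes name TopHat2, HTSeq, GRCm38 and mm10; versions and the strand orientation are not given in the sources used here. Of 21859 identifiers, 21191 were found with their version in GENCODE M21 (GRCm38), which gave coordinates and exon lengths.

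Tests were run in R 4.3.3 with edgeR 4.0.16. Its filterByExpr (minimum count 10) set aside low-count genes, libraries were scaled by TMM, and the robust quasi-likelihood test compared genotypes over 15077 genes, with Benjamini-Hochberg adjustment and a threshold of 0.05. The tests were tried on simulated counts. The alternatives were DESeq2 1.42.0, which the study used, limma-voom (limma 3.58.1), other scaling factors and filters, a replicate block and leaving out each mouse; DESeq2 without each mouse was added after seeing the data. The genes and lists were chosen with earlier results of these data known. Named were the 10 genes, all binding partners, related genes that passed or did not overlap, 5 most similar genes for each of *Cd86*, *Cd274* and *Lag3*, and marker genes at or near 0 or that stand beside a result. *Pax5*, *Ms4a1*, *Cd79a*, *Cd79b*, *Itgax*, *Flt3*, *Ccr7*, *Cd209a*, *Zbtb46*, *Clec9a*, *Kdr*, *Cdh5*, *Cd3e* and *Fcgr1* were chosen after their values were seen. The B cell list was used in part, and its sum is not reported here. The p-values set the genotype difference against the spread between mice.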

Additional observations from a re-analysis of the deposited data

How the results depend on the processing

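Each genotype had 4 mice. *Pdcd1lg2* and *Ctla4*, with 2 to 13 counts per library, were tested only where no filter was set or, for *Ctla4*, when a WT mouse was left out. Of the 10 genes, 1 passed an adjusted p of 0.05 in edgeR, against 2 in DESeq2, 0 in limma-voom, 0 when at least 10 counts were required in every library, where *Havcr2* was not tested, and 0 with the replicate block. Leaving out each mouse gave 0 to 1 in edgeR and 1 to 2 in DESeq2. For *Havcr2* the adjusted p was 0.0882 in limma-voom and 0.161 with the replicate block, and DESeq2 called it in 8 of 8 fits without 1 mouse. Of the related genes 1 passed, against 10 in DESeq2, 0 in limma-voom, 0 with the stricter filter, where *Tnfrsf9* was not tested, 0 with the block, 0 to 5 in edgeR without 1 mouse and 6 to 13 in DESeq2 without 1 mouse. Over all genes 70 passed (56 higher and 14 lower), against 725 in DESeq2 (470 higher and 255 lower), 29 in limma-voom (21 higher and 8 lower), 2 with the block, 0 to 593 in edgeR without 1 mouse and 445 to 1562 in DESeq2 without 1 mouse. With upper-quartile factors 74 passed, 53 higher and 21 lower. An unadjusted p under 0.05 was given to 5 of the 10 genes, against 3 in limma-voom, 3 with the stricter filter and 3 with the block. The value for *Cd274* changed sign to 0.02 without *ApoE-/-* mouse 3, 0.02 without WT mouse 1 and 0.04 without WT mouse 4, and in DESeq2 to 0.0101, 0.0048 and 0.0301, and over all fits without 1 mouse it ranged from -0.34 to 0.0443. The cause of these changes was not tested. The replicate numbers belong to different mice, and the correlations of same-numbered mice about their group means were 0.0593, -0.448, 0.316 and 0.162, so the numbers do not pair them. Over the log2 fold changes of the tested genes, 170 alternatives left direction and call as they were, 9 lost the call of *Havcr2*, 5 gained a call for *Cd80* and 6 changed the sign of *Cd274*.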

Other observations

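Several of the 10 genes lie beside relatives in the genome. *Cd274* and *Pdcd1lg2*, which encode both PD-1 ligands, are 22.8 kb apart with 0 protein-coding genes between them, yet *Cd274* had 260 to 780 counts per library and *Pdcd1lg2* had 2 to 10. *Ctla4* lies 62.1 kb from *Icos* and 113.6 kb from *Cd28*, its costimulatory relatives, and in none of these genes did the genotypes separate. *Lag3* lies 16.1 kb from *Cd4*. *Havcr2* lies 329.5 kb from *Timd4*, another TIM family gene, with 5 protein-coding genes between. *Timd4* was at 1.83, 1.79, 1.66 and 2.43 CPM in the *ApoE-/-* mice and 1.79, 1.73, 2.05 and 2.35 CPM in the WT mice, and the groups overlapped.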
